A study of Mus musculus with 20 samples.

Results

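Adventitial and progenitor fibroblast markers were described in cultured mouse renal myofibroblasts from WT and WWP2-/- mice. The 8 genes, *Cd34*, *Ly6a*, *Thy1*, *Pi16*, *Dpp4*, *Dpt*, *Clec3b* and *Ly6c1*, were chosen by name, as genes used to mark these cells. They were 8 of the 51826 genes in the count table and of the 20407 genes that passed the filter on low counts, of at least 5 counts in at least 5 libraries. Earlier results of these data were known when these genes and the lists below were chosen. Shares set beside all genes are therefore descriptions. The 20 libraries of poly-A RNA formed 4 groups of 5, untreated WT, untreated WWP2-/-, TGFβ1-treated WT and TGFβ1-treated WWP2-/- cells. All cells were of the C57BL/6J strain, and all grew out of minced kidney pieces and were used at the second passage without a sort for any cell type. The WWP2-/- line carries a germline knockout of an E3 ubiquitin ligase, which the study reports as a loss of the full-length and N isoforms. WT and WWP2-/- mice were littermates in that colony, and TGFβ1 is the cytokine used to activate fibroblasts. The labels give neither the age and sex of the mice nor the dose and duration of TGFβ1, which the study describes for such cultures as a treatment of days. The labels do not say that the libraries of a group came from separate animals, whereas the study states in general that its data points are separate mice or cells from separate mice. If that did not hold for these libraries, the *P* values would measure a spread that may be technical.

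Fibroblasts of the adventitia, the outer sheath of vessels and organs, form a stromal population that many tissues share. They are recognised by surface proteins such as CD34, SCA-1 (encoded by *Ly6a*), THY1 and DPP4 and by secreted proteins such as PI16, dermatopontin and tetranectin. In several organs cells with these markers have been described as progenitors of other fibroblasts, and myofibroblasts are the contractile, collagen-producing cells of fibrosis. Most of the markers are not exclusive. CD34 is also found on endothelial and hematopoietic cells, and the LY6 proteins on endothelial and immune cells.

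In the GRCm38 genome the genes lie on chromosomes 1 (*Cd34* and *Dpt*, 30.1 Mb apart), 2 (*Dpp4*), 9 (*Thy1* and *Clec3b*, 79.1 Mb apart), 15 (*Ly6a* and *Ly6c1*) and 17 (*Pi16*). *Ly6a* (chr15:74994877-74998031) and *Ly6c1* (chr15:75044018-75048830) are neighbours separated by 0.0460 Mb on the minus strand. The other genes, as GENCODE draws them, are *Cd34* (ENSMUSG00000016494, chr1:194938819-194961279, plus strand), *Thy1* (ENSMUSG00000032011, chr9:44043384-44048579, plus strand), *Pi16* (ENSMUSG00000024011, chr17:29317680-29330593, plus strand), *Dpp4* (ENSMUSG00000035000, chr2:62330073-62412231, minus strand), *Dpt* (ENSMUSG00000026574, chr1:164796644-164824266, plus strand) and *Clec3b* (ENSMUSG00000025784, chr9:123150946-123157432, plus strand). *Ly6a* and *Ly6c1* are paralogs that share sequence. Of the distinct 50-base words in *Ly6c1* transcripts, 32.8% also occur in transcripts of 3 other genes, with *Ly6c2* and *Ly6a* leading. Of those of *Ly6a*, 19.0% occur in 4 other genes, so some counts of both may be uncertain. The reads were paired and longer than these words, so a share of words is not a share of uncertain counts. The shares were 0.447% for *Cd34* and 0.940% for *Pi16*, and none of the words of *Thy1*, *Dpp4*, *Dpt* and *Clec3b* occurred elsewhere. *Cd34*, *Dpp4* and *Pi16* overlap genes of the opposite strand (Gm16897, Gm13561 and AC162182.1), whose reads cannot be told apart from theirs if strand was not used in counting.

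RefSeq promoter sequences of GRCm38.p6 matched 5 of the 8 genes, *Cd34*, *Dpp4*, *Dpt*, *Ly6c1* and *Pi16*. The 250 bases before the start of 4 of them are shown, *Dpp4* and *Ly6c1* because they were lower in WWP2-/- cells with TGFβ1, *Dpt* because it followed *Thy1* most closely, and *Cd34* because it did not follow the others. Capitals mark the E-box, CANNTG, the letters bound by basic helix-loop-helix factors, which reads the same on both strands.
Dpp4 (chr2:62412232-62412481, minus strand): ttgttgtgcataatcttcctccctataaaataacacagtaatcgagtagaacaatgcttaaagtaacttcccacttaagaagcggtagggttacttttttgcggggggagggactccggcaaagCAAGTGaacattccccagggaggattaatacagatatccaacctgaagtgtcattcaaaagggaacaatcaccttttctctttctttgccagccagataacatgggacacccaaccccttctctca
Ly6c1 (chr15:75048838-75049087, minus strand): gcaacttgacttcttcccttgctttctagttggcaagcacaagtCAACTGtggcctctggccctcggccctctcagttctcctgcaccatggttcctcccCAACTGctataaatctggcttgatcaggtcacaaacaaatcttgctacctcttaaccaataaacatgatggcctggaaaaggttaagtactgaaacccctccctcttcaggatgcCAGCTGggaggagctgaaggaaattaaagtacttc
Dpt (chr1:164796413-164796662, plus strand): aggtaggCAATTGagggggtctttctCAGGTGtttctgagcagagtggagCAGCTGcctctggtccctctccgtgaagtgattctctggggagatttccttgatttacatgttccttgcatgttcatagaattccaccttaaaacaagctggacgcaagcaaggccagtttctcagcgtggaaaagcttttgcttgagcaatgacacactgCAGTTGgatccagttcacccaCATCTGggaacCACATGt
Cd34 (chr1:194938571-194938820, plus strand): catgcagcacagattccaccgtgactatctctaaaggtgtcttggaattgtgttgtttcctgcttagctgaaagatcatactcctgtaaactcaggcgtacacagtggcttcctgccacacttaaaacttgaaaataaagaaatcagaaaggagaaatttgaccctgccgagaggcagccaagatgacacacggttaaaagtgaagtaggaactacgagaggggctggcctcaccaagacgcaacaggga

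The E-box was matched 6 times before *Dpt*, 3 times before *Ly6c1*, 1 time before *Dpp4* and 0 times before *Cd34* and *Pi16*. It is a common word, held by 66.1% of the 27025 promoters of 250 bases, whereas 0.263% held 6 or more, as *Dpt* did. The SMAD word CAGAC or its complement GTCTG, found in 42.2% of promoters, was matched 1 time before *Pi16* and 0 times before the other 4. The TATAAA word, on either strand, was in 13.0% of promoters and was matched 1 time each before *Dpp4* and *Ly6c1*. CATTCC, the word of TEAD factors, was in 12.6% of promoters and was matched 1 time, before *Dpp4*. For *Dpt*, the last 19 of the 250 bases lie inside the gene as GENCODE draws it. They hold the E-boxes CATCTG and CACATG, so its 6 matches depend on the start used. For *Cd34*, 2 bases lie inside, and the *Pi16* window lies inside the GENCODE gene, behind a more distant start. A match is a description of these letters and not of binding.

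Totals were between 47520759 and 73063697 counts per library. Thus 3 counts, the limit that a count of 0 allows for counting error alone, were at most 0.0631 per 1000000 unscaled counts. Levels in CPM are counts per 1000000 counts after TMM scaling. *Wwp2* was between 17.0 and 22.7 CPM in the 10 WWP2-/- libraries and between 49.99 and 59.8 CPM in the 10 WT libraries, without overlap. RNA of the gene thus remained in the WWP2-/- libraries. The fibroblast genes *Col1a1* (703 to 10845 CPM) and *Pdgfrb* (104 to 742 CPM) were present in every library, but *Pdgfra* ranged from 0.543 to 179 CPM and *Acta2* from 38.9 to 3430 CPM. The libraries also differed in *Xist*, the RNA of the inactive X chromosome. At a level of 1 CPM, 6 libraries had *Xist* only, 9 had Y-linked transcripts only, and 5 had both. In those 5, *Xist* was between 33.7 and 220 CPM and the Y-linked sum between 43.2 and 209 CPM. Cells of 1 male or 1 female mouse would not ordinarily give both. Whether these libraries mix animals was not tested. *Xist* passed 1 CPM in 4 of 5 libraries of each WT group, in 2 of 5 untreated WWP2-/- libraries and in 1 of 5 TGFβ1-treated WWP2-/- libraries, so that *Xist* moved with genotype. The WT libraries without it were untreated replicate 4 and TGFβ1-treated replicate 3, which stood apart below. In the WWP2-/- groups, untreated replicate 3 and TGFβ1-treated replicate 1 had *Xist* only and the lowest *Acta2*, 38.9 and 50.4 CPM, where the other 18 libraries had at least 1016 CPM.

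To compare genes, CPM were divided by exon length in kb. In untreated WT cells the order was *Ly6a* (212±98.4 CPM per kb, SD, n=5), *Thy1* (14.1±8.01), *Ly6c1* (10.8±7.99), *Dpt* (7.40±6.39), *Clec3b* (2.60±1.54), *Cd34* (1.08±0.538), *Pi16* (1.04±1.35) and *Dpp4* (0.870±0.542). Between neighbours in this order, *Ly6a* and *Thy1* alone were further apart than their SDs, and in the other 3 groups too *Ly6a* alone was separated from its neighbour. In untreated WWP2-/- cells *Ly6a* again led, at 171±66.3 CPM per kb, followed by *Ly6c1* (4.45±1.97), *Thy1* (1.999±1.69), *Cd34* (1.90±1.74), *Dpp4* (0.373±0.271), *Dpt* (0.217±0.239), *Clec3b* (0.0997±0.0665) and *Pi16* (0.0437±0.0341). *Cd34* thus stood above *Dpt* and *Clec3b* in WWP2-/- cells and below them in WT cells. With TGFβ1, *Ly6a* was at 282±152 CPM per kb in WT and 216±145 in WWP2-/- cells, and the lowest was *Pi16*, at 0.506±0.330 in WT and 0.0560±0.0728 in WWP2-/- cells. *Ly6a* was therefore the abundant member in all 4 groups, and the remaining values are levels in CPM.

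With TGFβ1, 3 of the 8 genes, *Clec3b*, *Dpp4* and *Ly6c1*, were lower in WWP2-/- than in WT cells, and 0 were higher (edgeR's quasi-likelihood test, adjusted *P* below 0.05). Over all genes tested, 6.07% passed in this comparison, 3.96% as lower and 2.1% as higher. Untreated, 1 of the 8, *Clec3b*, was lower and 0 were higher, where 0.725% of all genes passed, 0.622% as lower and 0.103% as higher. Separation of the genotypes without overlap was seen for 1 of 8 genes with TGFβ1 (*Clec3b*), against 5.67% of all genes, and for 0 of 8 untreated, against 2.79%. The log2 fold change was negative for 7 of the 8 in both comparisons, *Cd34* being the exception. Of all 20407 genes it was negative for 9150 with TGFβ1 and 8565 untreated. The median of the 8 was −3.16 with TGFβ1 and −2.05 untreated, beside 0.05 and 0.08 over all genes. A list of 10 general fibroblast genes also had negative medians, so a shift downward was not particular to the 8. Its medians were −1.55 with TGFβ1 (8 of 10 negative) and −0.81 untreated (7 of 10 negative). The members are not separate observations, since *Thy1*, *Dpt*, *Pi16*, *Clec3b* and *Dpp4* rose and fell together over the libraries. In bulk RNA, fewer cells that express a gene and less RNA per cell cannot be told apart.

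**Figure D1:**
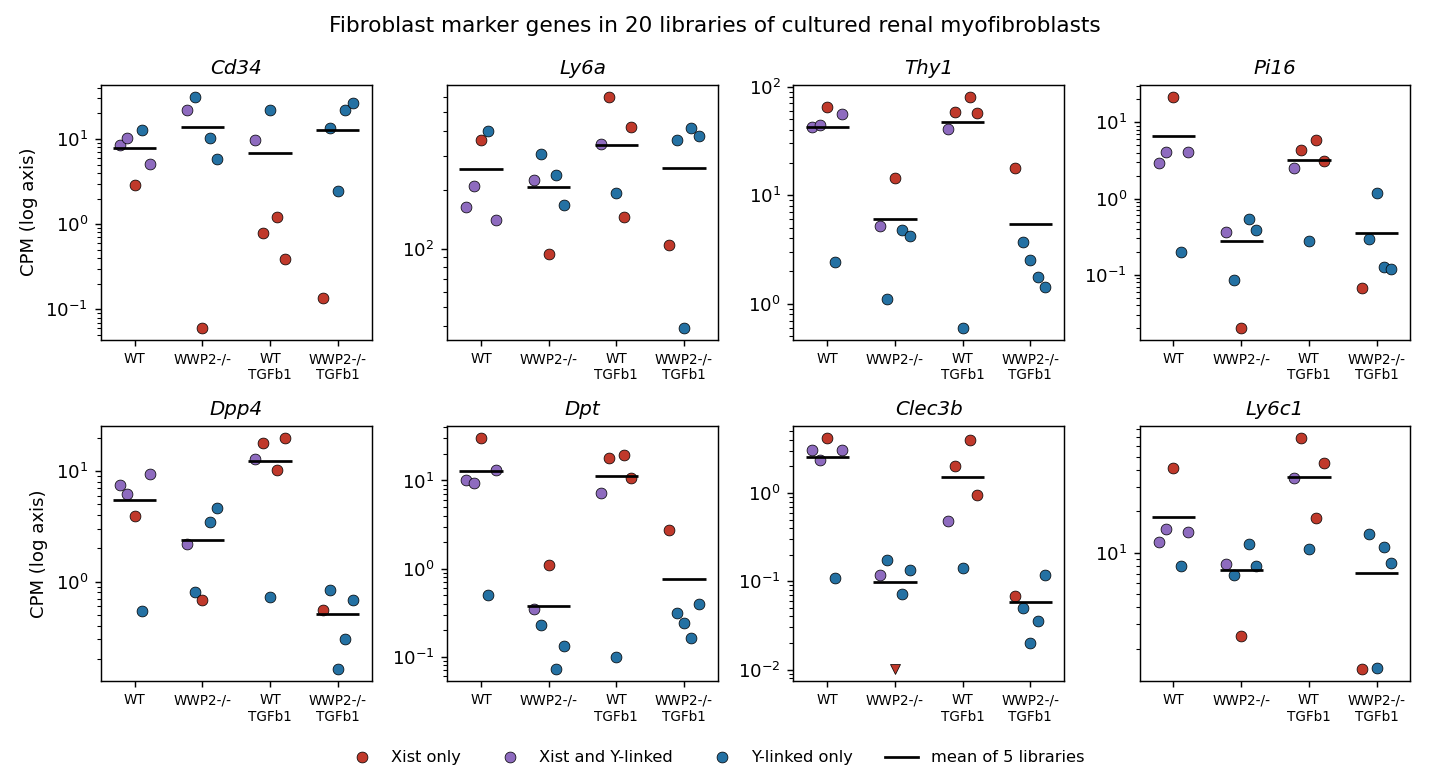
Level of each gene in CPM (log axis, with its own range in each panel) in the 20 libraries, by group. Points are libraries coloured by whether *Xist* and Y-linked transcripts exceeded 1 CPM, black lines are means of 5, and the triangle marks a count of 0 drawn at the panel's floor. In the panels of *Thy1*, *Pi16*, *Dpp4*, *Dpt* and *Clec3b*, the WT libraries with Y-linked transcripts only lie far below the other WT libraries.

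Among the secreted proteins, *Clec3b* encodes tetranectin, a plasminogen-binding C-type lectin of the matrix. With TGFβ1 it was at 0.484, 2.004, 0.140, 4.04 and 0.960 CPM in WT replicates 1 to 5 and at 0.0674, 0.0499, 0.0202, 0.0359 and 0.118 CPM in WWP2-/- replicates 1 to 5. All 5 WWP2-/- libraries were under the lowest of WT, although WT replicate 3 came close to the highest of them. This gave a log2 fold change of −4.62 (SE 0.965, adjusted *P* = 0.0133, edgeR), and since the WWP2-/- libraries held 1 to 8 counts each, its size depends on the prior count of the fit. Untreated, *Clec3b* was at 3.11, 2.38, 4.23, 0.109 and 3.07 CPM in WT and at 0.117, 0.172, 0, 0.0722 and 0.133 CPM in WWP2-/- replicates. WT replicate 4 lay within the WWP2-/- range and the other 4 WT libraries far above it. Between the groups the log2 fold change was −4.64 (SE 0.936, adjusted *P* = 0.0308, edgeR), and this call was lost in 9 of 20 fits that left out a library, namely without WT replicate 1, 2, 3 or 5 or any untreated WWP2-/- replicate (adjusted *P* up to 0.111).

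*Dpt* encodes dermatopontin, a small matrix protein that binds decorin and collagen. Its levels with TGFβ1 were 7.26, 17.9, 0.0998, 19.6 and 10.7 CPM in WT and 2.73, 0.316, 0.242, 0.162 and 0.400 CPM in WWP2-/- replicates 1 to 5. The groups overlapped through WT replicate 3 alone, which was the lowest of the 10 libraries. Its log2 fold change of −3.85 (95% interval −6.25 to −1.45) did not pass (adjusted *P* = 0.0530, edgeR). Without TGFβ1, *Dpt* was at 10.2, 9.27, 30.5, 0.497 and 13.2 CPM in WT and 0.351, 0.230, 1.09, 0.0722 and 0.133 CPM in WWP2-/- replicates. Here WT replicate 4 lay below WWP2-/- replicate 3 and the other WT libraries above all of the WWP2-/- ones. The untreated log2 fold change of −5.11 (95% interval −7.67 to −2.54) did not pass either (adjusted *P* = 0.0609, edgeR).

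*Pi16*, a peptidase inhibitor that marks the adventitial population in many organs, was low in the same 2 WT libraries. With TGFβ1 it was at 2.50, 4.37, 0.279, 5.90 and 3.06 CPM in WT and at 0.0674, 0.299, 1.17, 0.126 and 0.118 CPM in WWP2-/- replicates. WT replicate 3 again fell into the WWP2-/- range, whose highest value was that of replicate 3. Untreated, it was at 2.90, 4.03, 21.8, 0.202 and 4.08 CPM in WT and at 0.364, 0.0861, 0.0201, 0.534 and 0.385 CPM in WWP2-/- replicates. The fold changes were −3.19 with TGFβ1 (adjusted *P* = 0.0759, edgeR) and −4.54 untreated (adjusted *P* = 0.0721, edgeR) on the log2 scale, with 95% intervals of −5.41 to −0.97 and −6.89 to −2.20, and did not pass the threshold.

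*Dpp4* encodes CD26, a serine peptidase on the cell surface. With TGFβ1 it was at 12.7, 17.9, 0.718, 10.2 and 19.97 CPM in WT and at 0.556, 0.831, 0.161, 0.305 and 0.681 CPM in WWP2-/- replicates. WT replicate 3 lay inside the WWP2-/- range, and the other 4 WT libraries were more than 10 CPM. *Dpp4* had a log2 fold change of −4.59 (SE 0.85, adjusted *P* = 0.0086, edgeR). Untreated, *Dpp4* was at 7.45, 6.18, 3.88, 0.543 and 9.44 CPM in WT and at 2.20, 0.804, 0.684, 3.44 and 4.67 CPM in WWP2-/- replicates. These groups overlapped at more than 1 library, and the log2 fold change of −1.22 (95% interval −2.77 to 0.33, adjusted *P* = 0.445, edgeR) did not pass. The genotype difference was thus past the threshold with TGFβ1 and not without it, but the difference between them, the interaction of genotype and TGFβ1, did not pass for *Dpp4* (−3.37 on the log2 scale, SE 1.07, adjusted *P* = 0.530, edgeR).

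*Thy1*, *Ly6a* and *Ly6c1* encode surface proteins held by a lipid anchor. *Thy1* (CD90), a common marker of fibroblasts, was with TGFβ1 at 41.1, 58.5, 0.599, 81.1 and 57.4 CPM in WT and at 17.8, 3.69, 2.52, 1.76 and 1.42 CPM in WWP2-/- replicates. WT replicate 3 was the lowest of these libraries, and WWP2-/- replicate 1, with *Xist* only, was the highest of its group. Untreated, *Thy1* was at 42.7, 44.4, 64.9, 2.41 and 56.2 CPM in WT and at 5.21, 1.11, 14.6, 4.82 and 4.24 CPM in WWP2-/- replicates, with WT replicate 4 below 4 of the 5 WWP2-/- libraries. The log2 fold change was −3.13 with TGFβ1 (95% interval −5.24 to −1.02, adjusted *P* = 0.0681, edgeR) and −2.82 untreated (95% interval −4.90 to −0.74, adjusted *P* = 0.206, edgeR), and neither passed.

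*Ly6a* (SCA-1), used to isolate progenitor cells of several tissues, did not separate the genotypes. With TGFβ1 it was at 342, 602, 193, 145 and 418 CPM in WT and at 104, 361, 39.1, 417 and 378 CPM in WWP2-/- replicates. Untreated, it was at 164, 209, 359, 403 and 140.4 CPM in WT and at 224, 306, 93.8, 239 and 168 CPM in WWP2-/- replicates. Of the WT libraries without *Xist*, untreated replicate 4 was the highest of its group and TGFβ1-treated replicate 3 above replicate 4 alone. The log2 fold changes were −0.39 with TGFβ1 (95% interval −1.50 to 0.72, adjusted *P* = 0.702, edgeR) and −0.31 untreated (95% interval −1.42 to 0.81, adjusted *P* = 0.809, edgeR), intervals that hold differences of more than 1 on this scale.

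*Ly6c1*, its neighbour, was with TGFβ1 at 35.1, 68.8, 10.7, 17.8 and 45.3 CPM in WT and at 1.41, 13.6, 1.43, 10.9 and 8.44 CPM in WWP2-/- replicates. The groups overlapped, since WT replicate 3 lay below WWP2-/- replicates 2 and 4. The log2 fold change of −2.31 (SE 0.663) passed narrowly (adjusted *P* = 0.0466, edgeR). It was lost in 15 of 20 fits that left out a library, that is, all but those without WT replicate 3 or 4, WWP2-/- replicate 3, TGFβ1-treated WT replicate 3 or TGFβ1-treated WWP2-/- replicate 2 (adjusted *P* up to 0.128). It was also lost without a filter on low counts (adjusted *P* = 0.0617), with a block for replicate number (0.0771) and with only the 2 groups fitted (0.111). Untreated, *Ly6c1* was at 11.9, 14.9, 41.6, 7.99 and 14.1 CPM in WT and at 8.27, 6.87, 2.46, 11.6 and 8.05 CPM in WWP2-/- replicates, and the log2 fold change of −1.28 (95% interval −2.63 to 0.07, adjusted *P* = 0.357, edgeR) did not pass.

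Among 17 genes of the LY6 family, 16 were in the table and 7 were tested, of which *Ly6c1* alone passed with TGFβ1 and 0 passed untreated, beside 6.07% and 0.725% of all genes. *Ly6e* was between 193 and 1442 CPM, with log2 fold changes of 0.57 with TGFβ1 (adjusted *P* = 0.485, edgeR) and 0.54 untreated (adjusted *P* = 0.615, edgeR). *Lynx1*, a modulator of acetylcholine receptors, was between 43.5 and 106 CPM with fold changes of −0.02 and −0.12. *Ly6f*, *Ly6h* and *Ly6i* did not exceed 0.503 CPM in any library, and none passed. The family median was −0.02 with TGFβ1 and −0.31 untreated on the log2 scale.

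*Cd34* encodes a sialomucin of the cell surface. With TGFβ1 it was at 9.68, 0.781, 22.0, 1.21 and 0.388 CPM in WT and at 0.135, 13.7, 2.46, 22.0 and 26.4 CPM in WWP2-/- replicates. WT replicate 3, the lowest library for *Thy1* and *Dpt*, was here the highest of its group. Untreated, *Cd34* was at 8.42, 10.3, 2.92, 12.7 and 5.08 CPM in WT and at 21.7, 31.6, 0.0604, 10.2 and 5.77 CPM in WWP2-/- replicates. The 2 WWP2-/- libraries with *Xist* only, which had 3 and 8 counts, were the lowest of all 20. The log2 fold change was 0.93 with TGFβ1 (95% interval −1.57 to 3.42, adjusted *P* = 0.681, edgeR) and 0.82 untreated (95% interval −1.67 to 3.30, adjusted *P* = 0.769, edgeR), and with *Xist* as a covariate the direction turned, to −0.69 and −0.55.

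**Figure D2:**
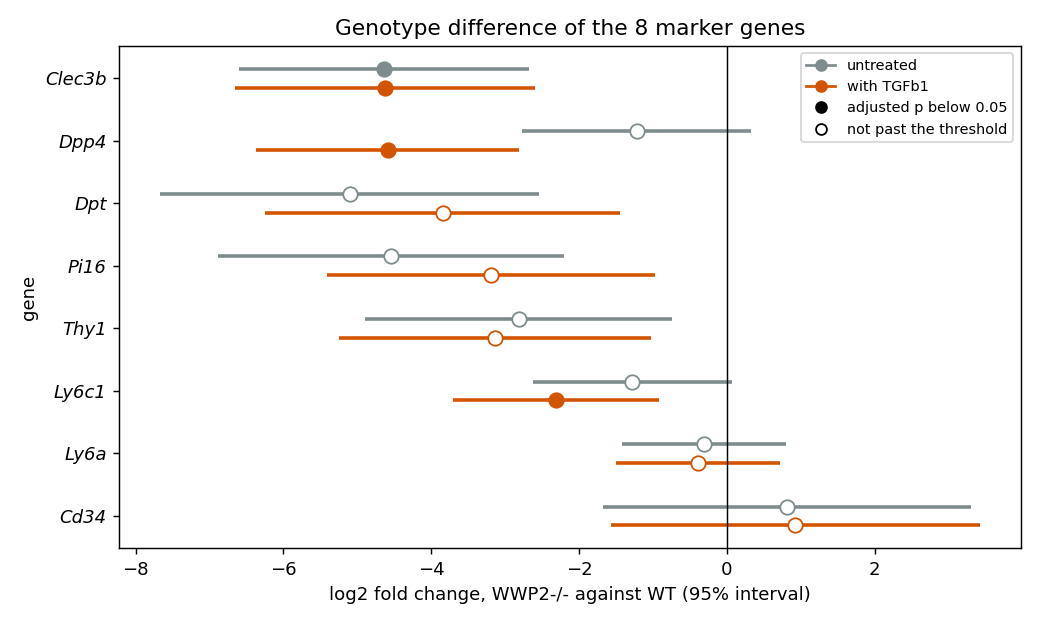
Log2 fold change of each gene between WWP2-/- and WT cells (x axis) with TGFβ1 (orange) and untreated (grey), 5 libraries a group. Points are the edgeR estimates, filled where the adjusted P was below 0.05, and lines are 95% intervals. With TGFβ1, *Clec3b*, *Dpp4* and *Ly6c1* are filled, untreated *Clec3b* is, and the intervals of *Ly6a* and *Cd34* hold 0.

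The number of genes past the threshold followed single libraries. With TGFβ1 it rose from 3 to 6, all lower, without untreated WT replicate 4, without TGFβ1-treated WT replicate 3, or without both, the genes added being *Thy1*, *Pi16* and *Dpt*. The calls over all genes rose likewise, from 1238 to 1854, 2730 and 3322. Without both, *Dpt* was at −4.16 (adjusted *P* = 0.0038), *Thy1* at −3.45 (adjusted *P* = 0.0043), *Pi16* at −3.48 (adjusted *P* = 0.0145) and *Dpp4* at −4.89 (adjusted *P* = 5.47e-05) on the log2 scale (edgeR). Untreated, 4 of the 8 then passed, *Clec3b*, *Dpt*, *Pi16* and *Thy1*, and 3 did without either of these libraries alone, while the calls over all genes rose from 148 to 1136, and to 743 without untreated WT replicate 4 and 291 without TGFβ1-treated WT replicate 3. Leaving out the 2 WWP2-/- libraries low in *Acta2* gave 5 genes with TGFβ1 and 2 untreated, while the calls over all genes rose to 3480 and 271. The Wald test of DESeq2 called 6 and 4 of the 8, and 2672 and 743 of all genes.

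When *Xist*, as log2(CPM + 1), was added to the model, 0 of the 8 genes passed in either comparison, where 660 of all genes passed with TGFβ1 and 87 untreated. With the covariate, *Dpp4* was at −3.57 (adjusted *P* = 0.0816), *Clec3b* at −3.45 (adjusted *P* = 0.0948) and *Ly6c1* at −2.37 (adjusted *P* = 0.151) with TGFβ1 (edgeR). *Thy1* moved from −3.13 to −1.11 and *Dpt* from −3.85 to −1.52. The value of *Ly6c1* had been −2.31 without the covariate. Without the 5 libraries that held both *Xist* and Y-linked transcripts 0 of the 8 passed as well, but only 2 of 19793 genes did with TGFβ1 and 1 untreated. The log2 fold changes with TGFβ1 were then −4.86 for *Clec3b*, −4.58 for *Dpp4*, −2.31 for *Ly6c1*, −3.97 for *Dpt* and −3.18 for *Thy1*, close to those over all 20 libraries. Little else was possible, since only 1 of the 5 libraries was treated, a WT one. The others were 3 untreated WT and 1 untreated WWP2-/- library. Untreated, *Dpp4* moved from −1.22 to 0.12 and *Ly6a* from −0.31 to −0.92. *Dpt* (−5.11 to −5.36) and *Clec3b* (−4.64 to −4.46) moved less for their size. Genotype and *Xist* were unequally spread over the 20 libraries, and their parts in the differences cannot be told apart from this design.

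Values within libraries of 1 kind, which are kinds defined from the data and not groups of the study, were set side by side without a test. Among libraries with *Xist* only, *Clec3b* was between 0.960 and 4.23 CPM in 4 WT and at 0 and 0.0674 CPM in 2 WWP2-/- libraries, *Dpp4* between 3.88 and 19.97 CPM and at 0.684 and 0.556 CPM, and *Pi16* between 3.06 and 21.8 CPM and at 0.0201 and 0.0674 CPM. *Thy1* was between 57.4 and 81.1 CPM in the 4 WT and at 14.6 and 17.8 CPM in the 2 WWP2-/- libraries, whereas *Pdgfra* was between 66.5 and 179 CPM and at 93.4 and 105 CPM. *Pdgfra* encodes a receptor for PDGF of many fibroblasts, and alone of these 5 genes it overlapped. These 2 WWP2-/- libraries are the ones low in *Acta2*. The other members were apart there too, *Ly6a* at 145 to 602 against 93.8 and 104 CPM, as was *Col1a1*, at 5795 to 10845 against 703 and 889 CPM, so the separation was not limited to the markers. Among libraries with Y-linked transcripts only, the ranges of 2 WT and 7 WWP2-/- libraries overlapped, with *Thy1* at 2.41 and 0.599 CPM against 1.11 to 4.82 CPM and *Dpp4* at 0.543 and 0.718 CPM against 0.161 to 4.67 CPM. *Dpt* was at 0.497 and 0.0998 CPM there against 0.0722 to 0.400 CPM, and *Clec3b* at 0.109 and 0.140 CPM against 0.0202 to 0.172 CPM. In these 9 libraries *Pdgfra* did not exceed 1.87 CPM. The untreated WWP2-/- library with both kinds of transcript had *Thy1* at 5.21 and *Dpt* at 0.351 CPM, where the 4 WT libraries with both had *Thy1* between 41.1 and 56.2 and *Dpt* between 7.26 and 13.2 CPM.

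Between TGFβ1-treated and untreated cells, 0 of the 8 genes passed the threshold in WT and 0 in WWP2-/- cells, and the interaction of genotype and TGFβ1 passed for 0. The background was also 0 in each, since 0 of the 20407 genes passed with edgeR (0%), although 1397, 713 and 1424 genes had an unadjusted *P* below 0.05 and DESeq2 called 27, 49 and 10 genes, with 0 of the 8 among them. At an unadjusted *P* below 0.05 were 0 of the 8 genes in WT cells and 1 in WWP2-/- cells and in the interaction, *Dpp4* in both. The treated and untreated groups overlapped for all 8 genes in both genotypes, where 1.35% of all genes did not overlap in WT and 0.377% in WWP2-/- cells. These comparisons use the same libraries as those between genotypes.

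*Dpp4* was the member whose treated and untreated libraries were furthest apart. In WT cells its 4 *Xist*-bearing libraries with TGFβ1 (10.2 to 19.97 CPM) were all above the highest untreated library (9.44 CPM), with a log2 fold change of 1.16 (95% interval −0.38 to 2.70, adjusted *P* = 0.863, edgeR). In WWP2-/- cells 4 of 5 TGFβ1-treated libraries lay below the lowest untreated library (0.684 CPM), with a log2 fold change of −2.21 (SE 0.774, adjusted *P* = 0.933, edgeR). *Ly6c1* was at 35.5±23.1 CPM with and 18.1±13.4 CPM without TGFβ1 in WT cells (SD, n=5), a log2 fold change of 0.97 (95% interval −0.36 to 2.31). For the other 6 genes the log2 fold changes were between −1.03 (*Pi16*) and 0.41 (*Ly6a*) in WT and between −0.74 (*Clec3b*) and 1.06 (*Dpt*) in WWP2-/- cells. The narrowest of their 95% intervals, that of *Ly6a* in WWP2-/- cells, ran from −0.78 to 1.45.

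Over the 20 libraries the genes fell into an ordered pattern, given as Pearson correlations of log2 CPM (n=20), a description in which the libraries share genotype, treatment and the differences in *Xist*. *Thy1* and *Dpt* were closest (r = 0.94), followed by *Pi16* and *Clec3b* (0.88) and by *Dpt* and *Clec3b* (0.86). Within *Thy1*, *Dpt*, *Pi16*, *Clec3b* and *Dpp4*, the lowest correlation was 0.71 (*Dpp4* with *Dpt*). *Ly6c1* was related to *Dpp4* (0.77, and 0.82 as a Spearman correlation of ranks). It was also related to its neighbour *Ly6a* (0.75, but 0.49 by ranks), with which it shares transcript sequence. *Ly6a* stood between 0.01 and 0.31 with *Thy1*, *Dpt*, *Pi16*, *Clec3b* and *Dpp4*. *Cd34* was negatively related to *Thy1* (−0.55) and *Dpt* (−0.46) and near 0 with *Clec3b* (−0.06) and *Pi16* (−0.08). *Thy1* also followed *Pdgfra* (0.94) and *Xist* (0.90).

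**Figure D3:**
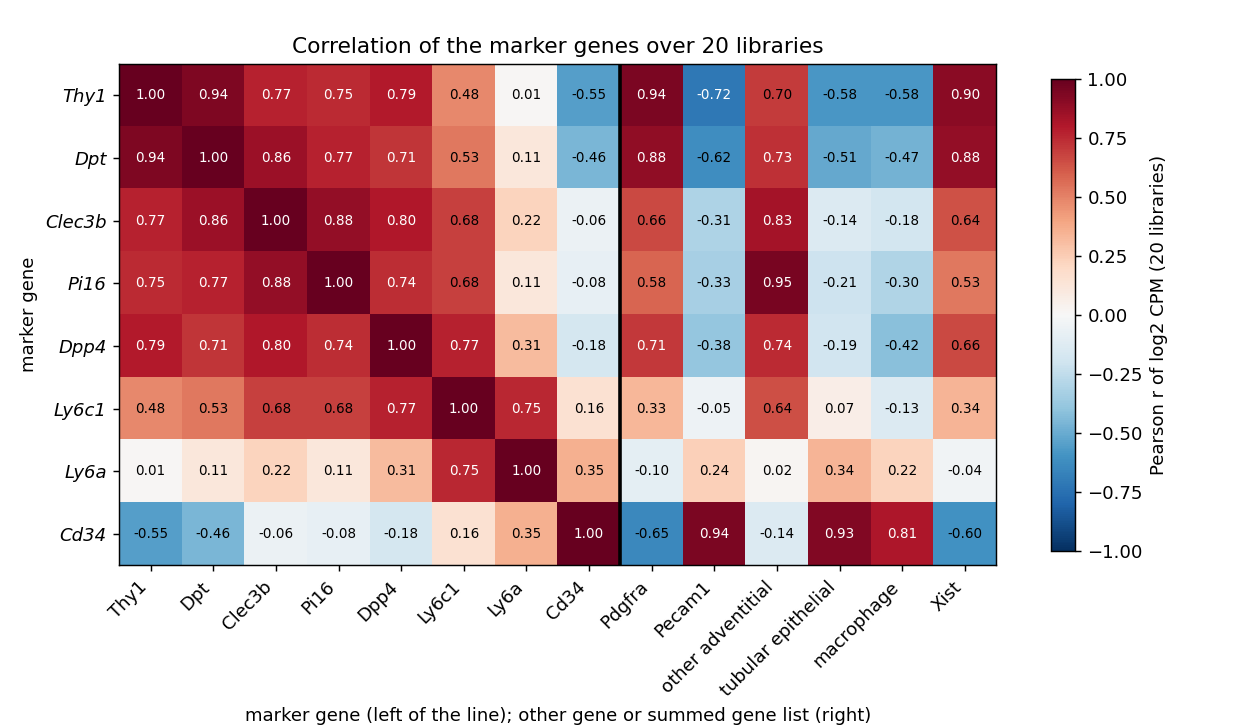
Pearson r of log2 CPM over 20 libraries, between the 8 genes (left of the black line) and between each gene and 3 further genes and 3 summed gene lists (right). Red is positive and blue negative. *Thy1*, *Dpt*, *Clec3b*, *Pi16* and *Dpp4* form a block of at least 0.71, and *Cd34* is red with *Pecam1* and with the tubular and macrophage lists.

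*Cd34* followed genes of other cells. It correlated with *Pecam1*, an endothelial adhesion molecule (r = 0.94), with *Cdh5*, the endothelial cadherin (0.84), and with the summed level of 10 endothelial (0.85), 10 tubular epithelial (0.93) and 10 macrophage genes (0.81). *Pecam1* was between 0.0505 and 29.6 CPM, *Cdh16*, the kidney cadherin of tubules, between 0.606 and 366 CPM, and *Ptprc* (CD45) between 0.510 and 34.7 CPM. The endothelial sum was between 34.6 and 91.0 CPM in untreated WT, 9.86 and 189 in untreated WWP2-/-, 30.2 and 203 in treated WT and 12.5 and 192 in treated WWP2-/- libraries. The tubular sum was in the same order between 34.0 and 466, 14.6 and 754, 37.2 and 220, and 13.1 and 591 CPM, and the macrophage sum between 156 and 4067, 76.8 and 1813, 63.4 and 448, and 73.6 and 3588 CPM. All 4 ranges overlapped in each list. Of the tested genes, 2 of 10 endothelial (*Kdr* and *Tek*, lower), 0 of 10 macrophage and 0 of 8 tubular genes passed between genotypes with TGFβ1, and 1 (*Tek*, lower), 0 and 0 untreated, beside 6.07% and 0.725% of all genes. All 10 macrophage and all 8 tubular genes nevertheless had positive log2 fold changes with TGFβ1, with medians of 2.52 and 2.09. Untreated, the 10 macrophage genes had negative ones, with a median of −0.84, and the tubular median was −0.47. Of the 10 endothelial genes, 2 had negative log2 fold changes with TGFβ1 and 3 untreated, with medians of 0.70 and 0.99. *Kdr* and *Tek* thus went against most of their list. Of all 20407 genes, 9150 had negative log2 fold changes with TGFβ1 and 8565 untreated.

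*Cd3e*, which defines T lymphocytes, was at 0 counts in 17 of 20 libraries and at most 0.0296 CPM, and the T lymphocyte list did not exceed 7.59 CPM in sum. *Epcam* did not exceed 7.09, *Msln* 5.09 and *Rgs5* 50.2 CPM. The part of other cells in the level of *Cd34* was not tested. *Cd34* had the genes *Kcnj16* (r = 0.96), *Kctd12* (0.96) and ccdc198 (0.96) as its nearest among 13519 genes with a mean of at least 1 CPM.

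**Figure D4:**
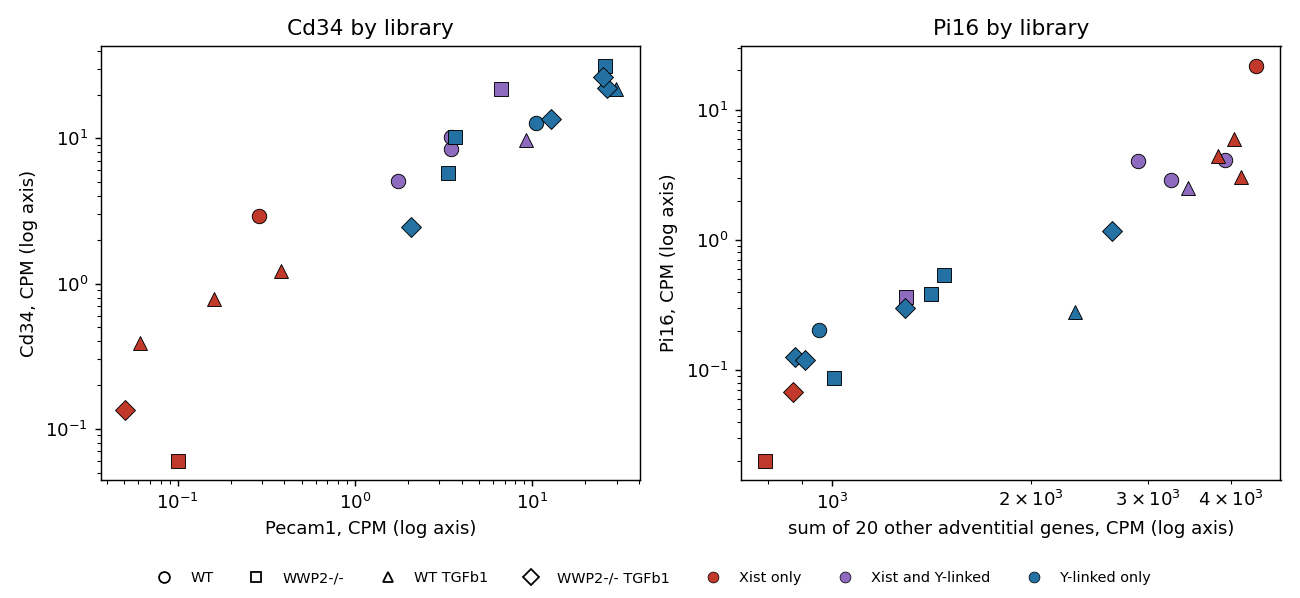
Left, *Cd34* against *Pecam1*, and right, *Pi16* against the sum of 20 other adventitial fibroblast genes, in CPM on log axes. Each of the 20 points is a library, with its shape for the group and its colour for *Xist* and Y-linked transcripts. *Cd34* rises with *Pecam1* over all groups (r = 0.94), and *Pi16* with the sum (r = 0.95).

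The nearest genes of the other members differed from these. *Thy1* was nearest to *Ebf2* (r = 0.98), a transcription factor of mesenchymal cells, *Adora2b* (0.98) and *Galnt17* (0.97), and *Dpt* to *Rab27a* (0.98), *Arap1* (0.98) and Gm48878 (0.97). *Clec3b* was nearest to *Tnmd* (0.96), which encodes tenomodulin of tendon cells, *Apba2* (0.96) and *Fxyd1* (0.95). *Pi16* was nearest to *Serpinb6c* (0.96), *Prdm6* (0.96) and *Prnp* (0.95), and *Dpp4* to the basement membrane gene *Nid2* (0.96), the cytokine gene *Il33* (0.95) and *Col6a1* (0.94). *Ly6c1* was nearest to *Kng1* (0.94), *Gfod2* (0.94) and *Ccn5* (0.91). The values of *Ly6a* were lower, with *Serpina3n* (0.89), *Car11* (0.87) and *Elp4* (0.87). None of the 8 genes was among the 3 nearest of another.

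A list of 20 other genes of adventitial fibroblasts was followed beside the 8. With TGFβ1, 5 of 20 were lower in WWP2-/- cells and 0 higher, with a median log2 fold change of −0.28, and untreated 2 were lower and 0 higher, with a median of −0.47, beside 3.96% and 0.622% of all genes that were lower. *Igfbp6*, a secreted protein that binds IGF2, averaged 424±200 CPM in WT libraries with TGFβ1 and 21.4±11.7 CPM in WWP2-/- libraries (SD, n=5), a log2 fold change of −4.31 (SE 0.7, adjusted *P* = 0.0061, edgeR). *Adamtsl1* (−4.14), *Col14a1*, a collagen of fibril surfaces (−3.97), and *Limch1* (−3.61) were lower as well (adjusted *P* = 0.0223, 0.0379 and 0.0140, edgeR). Untreated, *Igfbp6* (−3.83, adjusted *P* = 0.0214, edgeR) and *Cd248*, the pericyte and fibroblast protein endosialin (−2.65, adjusted *P* = 0.0481, edgeR), passed. *Cd248* also passed with TGFβ1, at −3.09 (adjusted *P* = 0.0121, edgeR). *Igfbp6* was between 282 and 613 CPM in the 8 WT libraries with *Xist*, at 13.3 and 100.04 CPM in the 2 without, and between 12.6 and 41.5 CPM in the WWP2-/- libraries. The correlation of *Pi16* with the summed list was 0.95, of *Clec3b* 0.83, of *Dpp4* 0.74, of *Ly6a* 0.02 and of *Cd34* −0.14 (n=20).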

How the data were processed

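The deposited values are raw counts per gene, which the authors made from paired reads of poly-A libraries with STAR (GRCm38, mm10) and featureCounts on exons. Tool versions and the use of strand are not given in the sources used here. Genes were named from GENCODE release M21 on GRCm38 (51633 of 51826), promoters are from RefSeq, and transcripts were compared by words of 50 bases. The depth per library, between 47520759 and 73063697 counts, limits low genes to steps of 1 count.

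Groups and replicates follow the sample labels, and all 20 columns were used. With R 4.3.3 and edgeR 4.0.16, genes reaching 5 counts in 5 or more libraries were normalized by TMM and fitted in 1 model of 4 groups (glmQLFit, glmQLFTest), with Benjamini–Hochberg adjustment over 20407 genes and a threshold of 0.05. CPM use TMM library sizes. Correlations used log2 CPM with a prior count of 2. The study's own test, that of DESeq2, is an alternative here (version 1.42.0 in this work). Other alternatives were size factors of DESeq2, 2 other filters, a block for replicate number, a covariate for *Xist*, only the groups compared, and leaving out libraries. Leaving out the 2 WT libraries without *Xist*, or the 2 low in *Acta2*, was chosen after seeing the data.

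The 8 genes and all lists were chosen with earlier results of these data known. Named are the 8 genes, *Wwp2*, *Xist*, the tested LY6 genes, the 3 most correlated genes of each member among those with a mean of at least 1 CPM, defining markers of other cells and, of the 20 other adventitial genes, up to 4 past the threshold with the largest changes in a comparison. *Cd248* with TGFβ1, *Kdr*, *Tek* and the within-kind values fall outside this rule and were chosen after their values were seen. The lists of general fibroblast, contractile, pericyte and mesothelial genes had 2 of 10, 1 of 8, 1 of 7 and 2 of 8 tested genes lower with TGFβ1, 0 higher, and 0 past the threshold untreated, and of 3 tested T lymphocyte genes 0 passed, beside 6.07% and 0.725% of all genes.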

Additional observations from a re-analysis of the deposited data

Results flagged for a closer look

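Of 32 groups of 5 libraries tested for a value far from the others (8 genes in 4 groups, log2 CPM), 6 had one. Chance flags about 1 in 20 such groups, but the tests are not independent: the 6 lie in 2 libraries and in genes that correlate at 0.71 or more, so their number says no more than that these 2 libraries stood apart. In each, the lowest library's gap to the next, as a share of the group's range, exceeded Dixon's critical value of 0.710. In untreated WT cells it was replicate 4, with a share of 0.872 for *Thy1* and 0.832 for *Clec3b*. In TGFβ1-treated WT cells it was replicate 3, with 0.860 for *Thy1*, 0.801 for *Dpt*, 0.796 for *Dpp4* and 0.711 for *Pi16*. These are the 2 WT libraries without *Xist*. They also had the highest macrophage (4067 and 448 CPM), tubular (466 and 220 CPM) and endothelial sums (91.0 and 203 CPM) of their groups. *Pdgfra* was lowest of its group in each, at 0.543 and 0.639 CPM. The part of other cells in these values was not tested. No WWP2-/- group had a library past Dixon's critical value, nor did any group for *Cd34*, *Ly6a* or *Ly6c1*.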

How the results depend on the processing

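Between genotypes with TGFβ1, 3 of 8 genes passed. The count was 2 without a filter, 2 with only the 2 groups fitted, 1 (of 3 genes tested) with at least 10 counts in every library, 0 with *Xist* as a covariate, 0 without the 5 libraries with both *Xist* and Y-linked transcripts, 6 with DESeq2's Wald test, 6 without the 2 WT libraries lacking *Xist*, 5 without the 2 WWP2-/- libraries low in *Acta2*, and 2 to 6 when a library was left out. Untreated, 1 passed. The count was 0 (of 3 tested) with at least 10 counts in every library, 0 with the *Xist* covariate, 0 without the 5 libraries with both, 0 with only the 2 groups fitted, 4 with DESeq2's Wald test, 4 without the 2 WT libraries, 2 without the 2 WWP2-/- libraries, and 0 to 3 when a library was left out. The causes were not tested, except that the strict filter tested fewer genes. TGFβ1 and the interaction gave 0 in all fits.

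Same-numbered libraries were not taken as pairs, since in no comparison were all 5 correlations above 0.1. They were between −0.59 and 0.50 for the other comparisons and between 0.02 and 0.51, all positive, for the untreated genotypes, where 4 of 5 libraries correlated best with their own number. With the replicate number as a block, 2 genes passed with TGFβ1 and 0 untreated (*Clec3b* adjusted *P* = 0.109, edgeR), and the block turned *Dpt* for TGFβ1 in WT (0.62), *Cd34* (0.11) and *Pi16* (−0.41) for TGFβ1 in WWP2-/- and *Pi16* in the interaction (−0.10).

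The *Xist* covariate turned *Cd34* to −0.69 with TGFβ1, −0.55 untreated and −0.14 in the interaction, and *Clec3b* to −0.0109 in the interaction. Without the 5 libraries with both, *Dpp4* untreated was 0.12, *Ly6a* for TGFβ1 in WT −0.17, *Cd34* for TGFβ1 in WWP2-/- 0.12, and in the interaction *Ly6a* 0.53 and *Clec3b* −0.40. Without the 2 WWP2-/- libraries low in *Acta2*, *Clec3b* was −0.28 in the interaction. Leaving out a library turned the direction of values that had not passed, with ranges on the log2 scale as follows. For TGFβ1 in WT cells they were *Cd34* −1.37 to 0.10, *Thy1* −0.13 to 0.49, *Pi16* −1.39 to 0.19 and *Dpt* −0.54 to 0.41. For TGFβ1 in WWP2-/- cells they were *Cd34* −0.53 to 0.47, *Thy1* −1.33 to 0.51, *Pi16* −0.87 to 0.70, *Dpt* −0.36 to 1.97 and *Ly6c1* −0.43 to 0.21. For the interaction they were *Cd34* −0.32 to 1.27, *Ly6a* −0.31 to 0.23, *Thy1* −1.50 to 0.34, *Dpt* −0.15 to 2.18 and *Clec3b* −0.39 to 0.83.

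Over all genes, 1238 passed with TGFβ1 and 148 untreated. The counts were 2672 and 743 with DESeq2's Wald test, 660 and 87 with the *Xist* covariate, 670 and 1 with the block, 534 and 1 with only 2 groups fitted, 2 and 1 without the 5 libraries with both, 3322 and 1136 without the 2 WT libraries, 3480 and 271 without the 2 WWP2-/- libraries, and 790 with TGFβ1 without a filter. Leaving out a library gave 453 (without TGFβ1-treated WT replicate 2) to 2730 (without TGFβ1-treated WT replicate 3) with TGFβ1. Untreated, it gave 743 without WT replicate 4 and 1 when the library left out was replicate 3 or 5 of WT, or replicate 1, 4 or 5 of WWP2-/-, so the untreated background of 0.725% rests on single libraries. With 5 libraries a group, and 1 to 12 counts of *Clec3b* in most WWP2-/- libraries, the size of low genes' changes is poorly determined.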
